A study of Drosophila melanogaster with 13 samples.

Results

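The difference between male and female heads was measured in Drosophila melanogaster adults that had been raised as larvae on sugar-rich food. The samples were chosen by their labels: every library of the diet called LPS, which is low in protein and high in sugar, entered as male or female. This gave 6 RNA samples (3 male and 3 female) in 7 libraries, out of 12 samples in 13 libraries in the whole series. The flies came from 3 isofemale lines named SD2, SD3 and SD6, each founded by 1 wild female caught near San Diego, and carried no transgene or mutation named in the labels. There was 1 male and 1 female sample for each line. For every line and diet, 10 vials of 40 larvae were kept at 25 °C with 12 h of light a day. The LPS food had a protein to carbohydrate ratio of 0.1. The same lines raised at a ratio of 0.43 (the HPS diet, high in protein and low in sugar) gave 3 further male and 3 further female samples, which serve here only for comparison. The RNA of a sample came from 70 to 80 pooled heads of adults 2 to 6 h out of the pupal case, and both sexes of a line came out of the same vials. A pool is therefore 1 replicate, and the p-values below measure only the spread between pools.

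In Drosophila the number of X chromosomes sets sex through the RNA-binding protein Sex-lethal, which acts on the splicing of transformer and on the translation of msl-2. Males, with a single X, raise transcription from it through the dosage compensation complex, which is built of MSL proteins and the noncoding RNAs roX1 and roX2. Females make yolk proteins in the fat body, a tissue that also lines the head and that combines the roles of liver and adipose tissue. In the first hours of adult life the cuticle is still hardening and remnants of larval fat body are still being cleared, so a head at that age holds more than brain, eye and sense organs.

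The male LPS libraries labelled SD3 and SD6 stood apart from their strain labels. Deviations from the mean of a group of 1 sex and diet followed strain in the other samples. They correlated at 0.624 to 0.804 over the 12 pairs with the same strain number that leave these libraries out. Pairs with different numbers, again without these libraries, correlated at −0.469 to −0.228 (24 pairs). With samples of their own number the pair of libraries correlated at −0.382 to −0.255 (6 pairs), and with samples of the other's number at 0.651 to 0.765 (6 pairs). Both are male and both are LPS, so an exchange between them alters the strain block of the test and leaves the sex of every sample as it is. Each result is therefore given as labelled and with the strains of these libraries exchanged ("exchanged labels"), and levels are listed in the order SD2, SD3, SD6 as labelled.

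Depth ran from 8.82 M gene reads (male SD6) to 27.5 M (male SD2, the sum of a 15.9 M and an 11.7 M library from different sequencing runs), with 17.2 M to 25.3 M in females. A count of 3 reads corresponded to 0.109 to 0.34 counts per M gene reads (CPM, scaled by TMM factors below). The listed genes of the testis, accessory gland and Y chromosome gave little or no signal. Not on the list were 2 genes placed on the Y that were tested, with a median log2 difference of −0.61 with exchanged labels and no call. The 14 accessory gland genes had at most 8 reads in any LPS sample and none was tested, 2 reads was the most for any of 12 Y-linked genes, and of 20 testis genes 14 had no more than 3 reads in every LPS sample. The summed level of the testis list was 116 to 160 CPM in males and 119 to 139 CPM in females, nearly all of it from bol, which is also transcribed outside the testis. That of 23 ovary and germ line genes was 33 to 34.5 CPM in males and 32.8 to 42.6 CPM in females, with the eggshell genes Cp16 and Cp36 at 0 reads. In whole heads, fewer cells of a type and less RNA per cell cannot be told apart.

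Of 10026 genes tested, 26 passed an adjusted p of 0.05 as labelled (0.259% of those tested), 11 higher in males (0.11%) and 15 higher in females (0.15%), and 809 had an unadjusted p below 0.05. With exchanged labels 239 passed (2.38%), 75 higher in males (0.748%) and 164 higher in females (1.64%), and 1573 had an unadjusted p below 0.05. All 26 were among the 239, and all 239 had the same direction as labelled. The male-higher genes with exchanged labels differed by a median of 0.65 on the log2 scale (1.57-fold) and the female-higher genes by 0.62 (1.54-fold). A difference of 2-fold or more was found for 27 of the 75 and for 28 of the 164. The count rests on every line: without 1 sample at a time it was 90 (female SD3 left out), 122 (female SD2), 134 (male SD2) or 158 (the library labelled male SD6), and 170 to 322 for the other samples. With both doubtful libraries left out 37 genes passed, a contrast in which a single male LPS sample remains. Without regard to strain, the 3 male and the 3 female values did not overlap for 983 of the 10026 genes (9.8%), with 447 higher in males (4.46%) and 536 higher in females (5.35%). Values in random order, 3 against 3, part at about this share. The count, or a lack of overlap in 1 gene, is therefore a description and no sign of a sex difference by itself.

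The X chromosome held a larger part of these genes than of the genes tested. It carried 1631 of the 10026 tested genes (16.3%), 18 of the 26 genes that passed as labelled (69.2%) and 102 of the 239 with exchanged labels (42.7%). With exchanged labels 6.25% of tested X-linked genes passed, against 1.61% of those on chromosomes 2, 3 and 4. X-linked genes went in both directions, 37 higher in males and 65 higher in females. The bulk of the chromosome was level between the sexes. The median log2 difference over all X-linked genes was −0.01 with exchanged labels and that over the autosomes was 0.01.

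**Figure D1:**
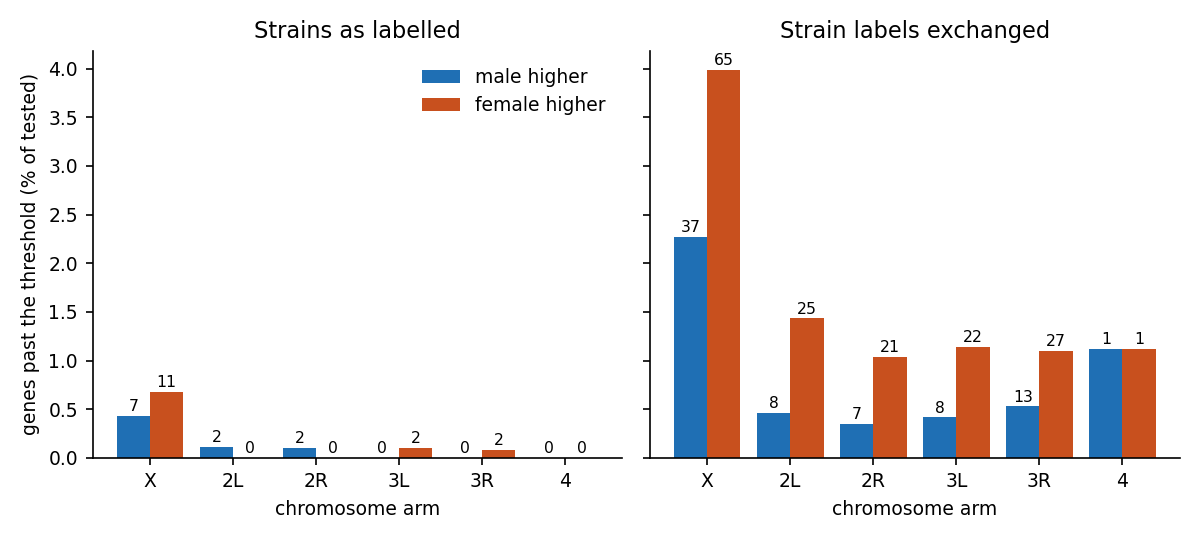
Share of tested genes past the threshold on each chromosome arm, in percent, as labelled (left) and with exchanged labels (right). Blue bars are genes higher in males, red bars genes higher in females, and the counts of genes stand over the bars. The X has the tallest bars in both panels, 18 of 26 genes on the left and 102 of 239 on the right.

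The components of the dosage compensation complex that are made only in males marked every sample by sex. roX1, a noncoding RNA of the complex (X chromosome), stood at 787, 644 and 946 CPM in males and at 1.27, 0.53 and 0.805 CPM in females. Every male lay far above every female. The log2 difference was 9.83 ± 0.35 (SE) as labelled (edgeR adjusted p = 6.05e-07) and 9.80 ± 0.26 with exchanged labels. roX2, its shorter partner in the complex (X chromosome), stood at 55.4, 27.5 and 53.6 CPM in males. Over the 3 female pools it had 2 reads in all, against 2568 in males, a ratio of 1426 (95% interval 394 to 11785, counting error only).

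msl-2, the subunit whose translation Sex-lethal blocks in females (chromosome arm 2L), differed at the level of the transcript as well. It stood at 41.6, 35.2 and 35.6 CPM in males and at 21.3, 20.6 and 20.4 CPM in females, so that the sexes did not overlap. The difference was 0.85 ± 0.08 with exchanged labels, or 1.8-fold (edgeR adjusted p = 0.000102, and 0.00467 as labelled). These were the 3 of 8 dosage compensation genes that passed. The helicase gene mle stood at 83.7, 84 and 90.1 CPM in males and 87.5, 79.5 and 77.3 CPM in females, and mof, which encodes the acetyltransferase of histone H4, at 7.92, 9.45 and 8.09 CPM against 6.44, 7.54 and 6.8 CPM. Neither passed (edgeR adjusted p = 0.672 and 0.363 with exchanged labels).

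Among 15 tested sex determination genes, 1 passed, and that with exchanged labels, where 2.38% of all genes passed. fru, which encodes the transcription factors behind male courtship, stood at 55.3, 60.2 and 65 CPM in males and 78.7, 84.8 and 74.8 CPM in females, with no overlap (−0.41 ± 0.09, edgeR adjusted p = 0.0263, and 0.201 as labelled). Sxl gave 177, 139 and 224 CPM in males and 243, 224 and 214 CPM in females (−0.35 ± 0.11, adjusted p = 0.126). tra gave −0.44 ± 0.11 (adjusted p = 0.0636) and dsx −0.60 ± 0.15 (adjusted p = 0.0648). For these 4 genes the sexes are known to differ in how the transcript is spliced, which a count per gene does not record. The list median was −0.03, against 0.01 over all genes. ssx, a paralogue of Sxl on the X, went the other way from these values. It stood at 187, 191 and 196 CPM in males and 145, 138 and 143 CPM in females (0.43 ± 0.07, edgeR adjusted p = 0.0404 as labelled and 0.00452 with exchanged labels), a small difference with a narrow spread.

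The yolk protein genes were higher in females, and Yp1 and Yp2 had the largest female-higher differences among the called genes under both labellings. Yp1, on the X, stood at 5.51, 2.5 and 6.13 CPM in males and 3340, 1719 and 1976 CPM in females. The log2 difference was −9.00 ± 0.31 as labelled (edgeR adjusted p = 6.05e-07) and −9.04 ± 0.23 with exchanged labels, or 525-fold. Yp2, its neighbour, stood at 25.5, 3.11 and 17.3 CPM in males and 2681, 2036 and 1526 CPM in females. Yp3, elsewhere on the X, was less one-sided, with 40.2, 56 and 25.2 CPM in males and 604, 246 and 707 CPM in females. The difference was −7.32 ± 0.36 for Yp2 and −3.64 ± 0.17 for Yp3 with exchanged labels, which is 160-fold and 12.4-fold. The level of Yp2 varied more among males than among females. The 3 males spanned 3.11 to 25.5 CPM.

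An antisense transcript within Yp1, asRNA:CR45601, was higher in females too (−6.48 ± 0.37 with exchanged labels). It had 333, 186 and 245 reads in females and 4, 2 and 3 in males. In females this was 0.549%, 0.638% and 0.499% of the reads of Yp1, and in males 2.5%, 4.44% and 5.66%, so the share was higher where Yp1 was low. The library kit marks strand and the counts were made by strand. What part of these reads came from Yp1 transcripts read on the wrong strand was not tested.

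**Figure D2:**
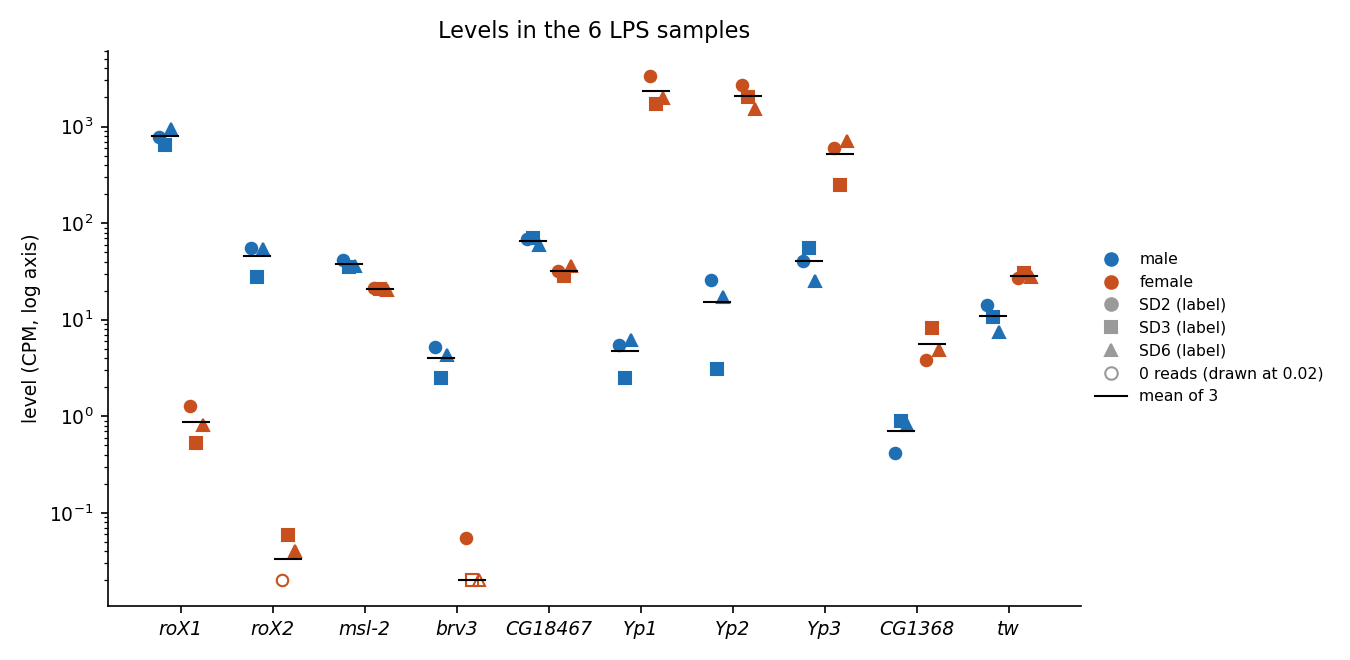
Levels of 10 genes in the 6 LPS samples, in CPM on a log axis. Each point is 1 pooled sample, blue for males and red for females, with the shape giving the strain label and the black line the mean of 3; open points at 0.02 are samples with 0 reads. Males and females lie apart for every gene shown, by 892-fold for roX1, by 525-fold for Yp1 and by 1.8-fold for msl-2.

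Other genes known to differ by sex in head fat body were called at lower levels. Cyp4d21 (2L), the cytochrome P450 also named sex-specific enzyme 1, stood at 8.09, 17.3 and 6.47 CPM in males and 3.03, 2.42 and 2.5 CPM in females. sxe2, a lipase-like gene known as sex-specific enzyme 2, stood at 35.4, 71.8 and 33.1 CPM in males and 14.4, 16.7 and 26.3 CPM in females. Neither overlapped between the sexes. Both passed with exchanged labels (1.95 ± 0.26, edgeR adjusted p = 0.00186, and 1.27 ± 0.11, adjusted p = 3.45e-05) and neither did as labelled (adjusted p = 0.2 and 0.214). fit, a fat body peptide gene known as female-specific independent of transformer, was near the detection floor in these young heads. It had 0.825, 0.177 and 1.09 CPM in females and 0.0688, 0.278 and 0 CPM in males, and the sexes overlapped (−2.58 ± 0.49, edgeR adjusted p = 0.014 with exchanged labels). Over the 13 tested genes of the list of sex-biased fat body and head genes, 2 passed as higher in males and 1 as higher in females with exchanged labels. Over all genes these shares were 0.748% and 1.64%. The list median was −0.07.

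Other male-higher genes chosen by the rule for named genes follow. The antisense transcript asRNA:CR45479 (X) stood at 7.78, 13.2 and 13.4 CPM in males and 0.77, 2.06 and 2.7 CPM in females (2.61 ± 0.22, edgeR adjusted p = 2e-05 with exchanged labels). It overlaps Cyp4d14 on the other strand, a cytochrome P450 gene at 2.34, 1.39 and 0.694 CPM in males and 0.605, 0.412 and 0.322 CPM in females. Cyp4d14 was also higher in males, by 1.74 ± 0.40 (adjusted p = 0.04 with exchanged labels). brv3 (X), which encodes a channel of the TRP polycystin family, had 234 reads in males and 1 in females, a ratio of 260.0 (95% interval 46.2 to 10311, counting error only). CG3706 had 35 reads in males and 0 in females; set against a floor of 3 reads over the 3 female pools, it was at least 13.0-fold higher in males, and the 95% lower bound of the ratio, for counting error only, was 9.99. CG32563 stood at 0.654, 0.611 and 0.578 CPM in males and at 0.055 to 0.0805 CPM in females.

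At higher levels the male-higher genes were separated by narrow gaps. CG18467 (2R) stood at 67.9, 70.2 and 58.9 CPM in males and 31.9, 28.6 and 36.3 CPM in females (1.03 ± 0.09, edgeR adjusted p = 3.45e-05 with exchanged labels and 0.0155 as labelled). CG13077 (2L) stood at 59.5, 68.7 and 66.1 CPM against 39, 40.6 and 43.9 CPM. CG11409 (X) stood at 16.2, 15.5 and 14 CPM against 8.14, 6.6 and 7.81 CPM. In none of these did any male lie below any female. CG6999 (1.65 ± 0.23), CG4586 (2.20 ± 0.30) and the noncoding lncRNA:CR32553 (2.09 ± 0.23) were further X-linked genes higher in males with exchanged labels. lncRNA:CR32553 overlapped between the sexes, since females ran from 0.495 to 4.87 CPM and males from 3.34 to 14.3 CPM.

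Of the 164 female-higher genes with exchanged labels 65 were X-linked (39.6%), the yolk protein genes included, and as labelled 11 of 15 were. CG1368 (X), of unknown function, stood at 0.413, 0.889 and 0.809 CPM in males and 3.85, 8.19 and 4.91 CPM in females (−2.95 ± 0.22, edgeR adjusted p = 6.87e-06 with exchanged labels). tw (X), which encodes a protein O-mannosyltransferase, stood at 14.4, 10.7 and 7.4 CPM in males and 27.3, 30.6 and 27.7 CPM in females (−1.35 ± 0.15, or 2.55-fold, adjusted p = 0.000348). CG14770 (X) stood at 40.8, 38.8 and 37.7 CPM in males and 66.9, 115 and 116 CPM in females. No male reached the lowest female for any of the 3 genes.

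frma (X) was lower in males by 0.98 on the log2 scale (SE 0.11), with 20, 29.1 and 28.3 CPM in males against 38, 65 and 52.8 CPM. Plod (3L), the lysyl hydroxylase that modifies collagen, stood at 62.9, 66.7 and 53 CPM in males and 107, 94.5 and 116 CPM in females (−0.80 ± 0.07, edgeR adjusted p = 3.45e-05 with exchanged labels and 0.0409 as labelled). pyd3 (3R), the beta-ureidopropionase of pyrimidine breakdown, stood at 81.6, 84 and 79 CPM in males and 134, 119 and 119 CPM in females (−0.60 ± 0.09). CG15445, CG8611 and CG17707 passed as labelled with differences between −0.78 and −0.75.

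Cuticle protein genes were the list with most called members after exchange. Of 34 tested, 1 passed as labelled and 7 with exchanged labels, all 7 higher in females, and the list median was −0.16. Over all genes 1.64% passed as higher in females with exchanged labels. These genes encode the structural proteins that bind chitin in the body wall, which is still maturing at this age. Ccp84Ad stood at 1.24, 5.06 and 3.35 CPM in males and 3.52, 14.7 and 9.14 CPM in females, and its neighbours in the cluster Ccp84Aa at 2, 8.5 and 9.13 CPM against 5.17, 21.9 and 17.2 CPM, and Ccp84Ab at 38.9, 19.4 and 19.2 CPM against 78.6, 41.4 and 34.9 CPM. In all 3 genes the lines differed by more than the sexes, so male and female ranges overlapped, while the female of a line was above its male under either pairing. The differences were −1.40 ± 0.22, −1.17 ± 0.17 and −0.98 ± 0.15 with exchanged labels (edgeR adjusted p = 0.0047, 0.0028 and 0.00324).

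The other called cuticle genes were Cpr56F (−0.98 ± 0.22), Cpr62Bc (−0.71 ± 0.10), Cpr11A (−0.60 ± 0.13) and resilin (−1.06 ± 0.25), the elastic protein of flexible cuticle. resilin had the widest range, with 49.4, 12.6 and 23.9 CPM in males and 157, 53.7 and 13.9 CPM in females. CG13044, which is not on the list, passed under both labellings. This gene stood at 55.4, 43.8 and 30.1 CPM in males and 132, 104 and 59.3 CPM in females, and the ranges did not overlap. The summed level of the list did not part the sexes, at 8970 to 11343 CPM in males and 8791 to 11258 CPM in females. The 13 tested members with a positive value included none that passed.

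All 15 tested genes of lipolysis and beta-oxidation had negative values under both labellings, with a median of −0.20 where all genes had 0.02 as labelled and 0.01 with exchanged labels. Of these 15, 1 passed, with exchanged labels, where 2.38% of all genes passed. The called gene was Acox57D-d, a peroxisomal acyl-CoA oxidase, at 38, 11.8 and 18.5 CPM in males and 57.6, 37.6 and 19 CPM in females (−0.75 ± 0.09, edgeR adjusted p = 0.000771). AkhR, the receptor for adipokinetic hormone, gave −0.46 ± 0.12 and did not pass (adjusted p = 0.0615).

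Among 12 tested lipid transport and storage genes 8 had negative values with exchanged labels (median −0.07) and 7 as labelled (median −0.03). Of the 12, 2 passed, with exchanged labels, where 2.38% of all genes passed. Apoltp, a haemolymph lipid transfer protein, stood at 148, 180 and 209 CPM in males and 232, 275 and 280 CPM in females, without overlap (−0.56 ± 0.09, edgeR adjusted p = 0.0043). Mtp, which loads lipid onto these carriers, gave −0.40 ± 0.09 (adjusted p = 0.03). bgm, a very-long-chain acyl-CoA synthetase, gave −0.74 ± 0.09 (adjusted p = 0.00108) and was the called gene among 13 of fatty acid and triglyceride synthesis. The lists of the Mondo-Mlx sugar response (15 genes, median −0.14), of glycolysis, trehalose and glycogen (18 genes, median −0.12) and of amino acid and one-carbon metabolism (17 genes, median −0.05) had no called member under either labelling.

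Of 23 tested genes of insulin, FOXO and TOR signalling, 1 passed as higher in males and 1 as higher in females with exchanged labels. The shares of all genes were 0.748% and 1.64%. Both called genes encode peptides. Ilp5, an insulin-like peptide of brain neurosecretory cells, stood at 18.6, 14.9 and 11.6 CPM in males and 24.9, 18.3 and 25.6 CPM in females (−0.60 ± 0.13, edgeR adjusted p = 0.0377 with exchanged labels). Ilp8, a relaxin-like peptide known from larval growth control, stood at 7.33, 11.4 and 13.1 CPM in males and 4.24, 6.19 and 6.84 CPM in females (0.85 ± 0.16, adjusted p = 0.0135). Ilp5 values of the sexes met, with male SD2 just above female SD3, while those of Ilp8 did not. Ilp3 gave −0.26 ± 0.11 and Ilp6 −0.24 ± 0.10, neither called (adjusted p = 0.255 and 0.283). Thor, the translational inhibitor induced by FOXO, gave 508, 441 and 613 CPM in males and 402, 471 and 395 CPM in females (0.29 ± 0.09, adjusted p = 0.0968). None of the 23 tested genes of the list passed as labelled.

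Muscle genes had a median of −0.17, and 18 of 23 tested were negative with exchanged labels. Of the 23, 3 passed, all higher in females and none of them as labelled. Over all genes 1.64% passed as higher in females with exchanged labels. bt, which encodes the giant titin-like protein projectin, stood at 263, 323 and 419 CPM in males and 647, 602 and 463 CPM in females (−0.78 ± 0.14, edgeR adjusted p = 0.0106). Prm, paramyosin, stood at 973, 1148 and 1095 CPM in males and 1538, 1529 and 1388 CPM in females (−0.48 ± 0.11, adjusted p = 0.0354). TpnC41C, a troponin C, gave −0.45 ± 0.10 (adjusted p = 0.041). No male reached the lowest female for these 3. The most abundant members had values of like size without passing: Mhc −0.51 ± 0.13 (adjusted p = 0.0671), Act57B −0.57 ± 0.16 (adjusted p = 0.0908) and SERCA −0.42 ± 0.12 (adjusted p = 0.102). The summed level of the list was 26377 to 33252 CPM in males and 31701 to 40396 CPM in females. The part of muscle tissue left on the heads in these values was not tested.

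Blood cell genes had a median of −0.37, with 11 of 12 tested genes negative and 2 called with exchanged labels. Over all genes 1.64% were called as higher in females with exchanged labels. Hml, hemolectin of haemocytes, stood at 21.6, 20.2 and 16.3 CPM in males and 40.2, 22.6 and 31.4 CPM in females (−0.68 ± 0.11, edgeR adjusted p = 0.00589 with exchanged labels). srp, the GATA factor of haemocytes and fat body, stood at 23.8, 20.4 and 19 CPM in males and 29.3, 28.2 and 29.9 CPM in females (−0.47 ± 0.09, adjusted p = 0.0151). Both were higher in every female than in any male. The collagen IV chains Col4a1 and vkg, which haemocytes and fat body secrete, gave −0.39 ± 0.10 and −0.35 ± 0.10 and did not pass (adjusted p = 0.069 and 0.109). The list's summed level was 1147 to 1355 CPM in males and 1359 to 1599 CPM in females.

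Larval storage protein genes had no called member among 6. Their median turned from 0.20 as labelled, where 4 were positive, to −0.41 with exchanged labels, where all 6 were negative. Lsp1alpha, a subunit of the larval hexamerin, stood at 0.551, 0.778 and 1.73 CPM in males and 0.44, 4.83 and 2.94 CPM in females (−1.25 ± 0.31, edgeR adjusted p = 0.0563 with exchanged labels). The summed level ran from 52.7 to 201 CPM in males and from 59.8 to 277 CPM in females. Variation among lines was thus wider than the difference between the sexes.

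Of 37 tested immune genes 2 passed, with exchanged labels and both higher in females. Over all genes 2.38% passed with exchanged labels, so a count of 2 in a list of this size says little about the list. Vago, an antiviral secreted peptide, stood at 13.7, 20.6 and 9.6 CPM in males and 21.2, 20.2 and 44.8 CPM in females (−0.93 ± 0.13, edgeR adjusted p = 0.0019). PGRP-SA, the receptor that detects Gram-positive bacteria in the Toll pathway, gave −0.62 ± 0.12 (adjusted p = 0.0172). The list median was −0.07. TotA, a secreted stress peptide of the Turandot family, was higher in males. It stood at 25.6, 84.4 and 78.4 CPM in males and 13.4, 37.2 and 70 CPM in females (0.71 ± 0.17, adjusted p = 0.0417), and it was the called gene among 22 tested for oxidative stress and heat shock. Among 36 tested P450 genes 2 passed, Cyp4d21 and Cyp4d14, and among 26 glutathione and UDP transferases none did.

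Genes of neurons and of the eye had small positive values. Of 22 tested genes of synaptic release 21 were positive under both labellings, with a median of 0.13, and none passed. nSyb, the synaptic vesicle SNARE, stood at 1062, 1056 and 1418 CPM in males and 1017, 1016 and 992 CPM in females (0.22 ± 0.10, edgeR adjusted p = 0.324). Transmitter synthesis and transport had 19 of 21 positive (median 0.11), receptors 37 of 48 (median 0.09) and neuropeptides 26 of 34 (median 0.17), all with exchanged labels. Over all 10026 genes 5238 were positive. The male library labelled SD6, the shallowest of the LPS samples, had the highest nSyb level. What part that library has in these medians was not tested.

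Within these lists 2 neuropeptide genes and 2 eye genes passed, with exchanged labels. Over all genes 0.748% passed as higher in males with exchanged labels. SIFa, a peptide of a few brain neurons that acts on courtship and feeding, stood at 69.1, 79.9 and 63.8 CPM in males and 48.9, 45.8 and 58.2 CPM in females (0.48 ± 0.08, edgeR adjusted p = 0.00571). AstC, allatostatin C, stood at 44.9, 47 and 51.2 CPM in males and 36.6, 35.2 and 40.1 CPM in females (0.35 ± 0.08, adjusted p = 0.0362). Rh4, an ultraviolet opsin of R7 photoreceptors, stood at 1301, 1314 and 1491 CPM in males and 838, 1115 and 999.9 CPM in females (0.48 ± 0.09, adjusted p = 0.013). w, the white transporter of eye pigment precursors, gave 0.48 ± 0.12 (adjusted p = 0.0469). In each of the 4 the lowest male lay above the highest female. Rh5, a blue opsin of R8 photoreceptors, had the opposite sign (−0.31 ± 0.09, adjusted p = 0.108).

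The glial list had 1 called gene of 14 tested. alrm, a leucine-rich repeat protein of astrocyte-like glia, stood at 201, 141 and 245 CPM in males and 161, 177 and 103 CPM in females (0.42 ± 0.07, edgeR adjusted p = 0.00661 with exchanged labels). Gs2, the glutamine synthetase of glia, gave 0.36 ± 0.10 (adjusted p = 0.0966). Among 35 odorant-binding protein and chemosensory genes 2 passed, both higher in females: Obp18a (−0.56 ± 0.09, adjusted p = 0.00634) and Obp19d (−0.47 ± 0.07, adjusted p = 0.00452). The clock list (12 genes), the ecdysone and juvenile hormone list (25), the proteasome list (32) and the oxidative phosphorylation list (55) had no called member. Of the proteasome genes 27 of 32 were positive (median 0.11). Over all lists, with each gene once, 7 of 666 tested members passed as labelled and 39 with exchanged labels (5.86%, against 2.38% of all genes), 13 higher in males and 26 in females. The lists hold the sex markers and were chosen with earlier results of these data known. The higher share among their members is therefore partly set by that choice.

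**Figure D3:**
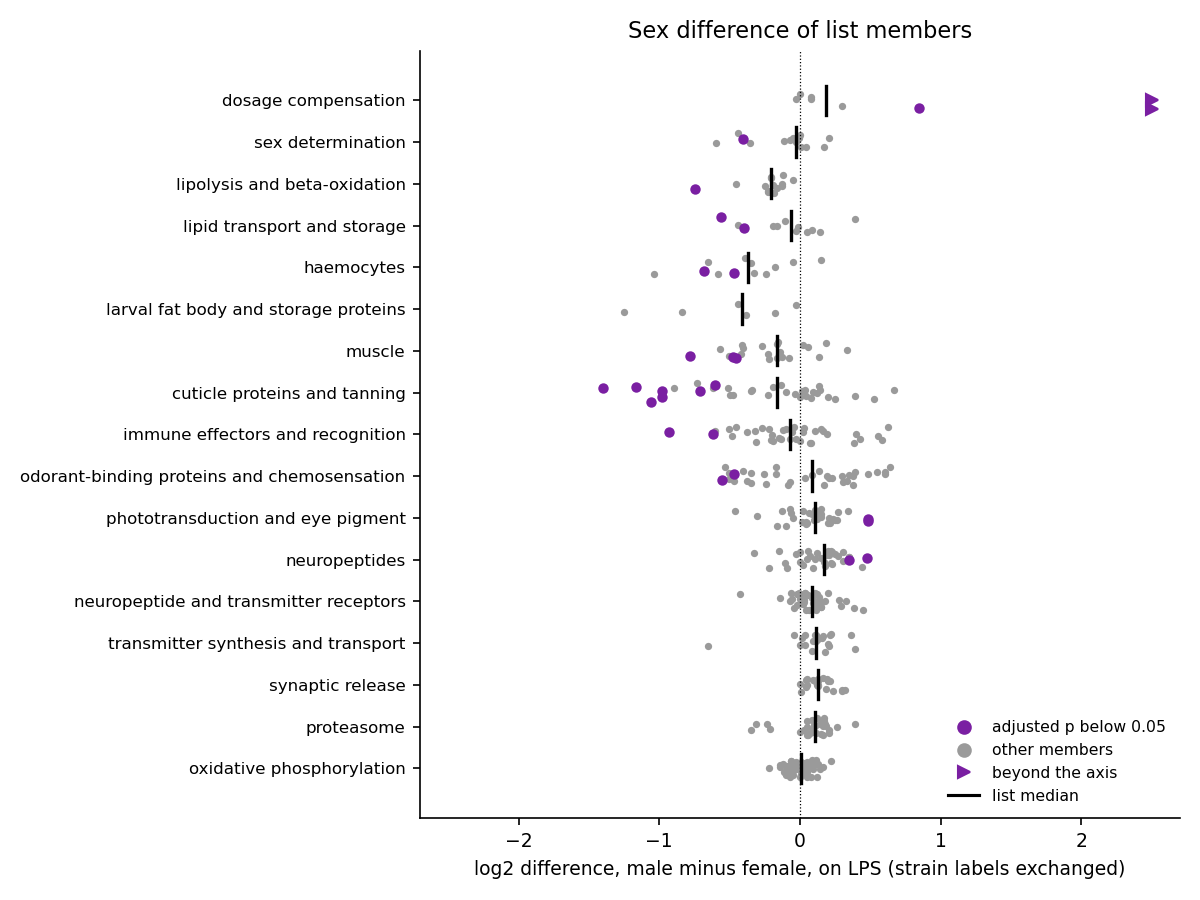
Log2 difference, male minus female, of the tested members of 17 gene lists on LPS, with exchanged labels. Purple points passed an adjusted p of 0.05, grey points did not, black lines are list medians, and arrowheads are roX1 and roX2, which lie beyond the axis. Muscle, haemocyte, lipolysis and cuticle genes lie mostly to the left of 0 and synaptic genes mostly to the right, with medians between −0.41 and 0.19.

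Across the 3 lines the size of the sex difference depended on how the males were paired. The median over genes of the SD of the 3 within-line log2 ratios was 0.256 as labelled and 0.175 with exchanged labels, and it was 0.184 on HPS, where no label was in doubt. Of the 239 genes 204 had the same direction in all 3 pairs as labelled and 237 with exchanged labels. The number with exchanged labels is partly set by the test, which was made on that pairing. CG7860 showed the contrast most clearly, at 54.4, 63.5 and 6.13 CPM in males and 10.1, 3.18 and 19.4 CPM in females. Its log2 ratio of male to female was 2.38 in SD2, 4.12 in SD3 and −1.59 in SD6 as labelled, and 0.85 in SD3 and 1.69 in SD6 with exchanged labels.

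Vago gave 0.03 in SD3 and −2.17 in SD6 as labelled and −1.03 and −1.11 when exchanged, beside −0.62 in SD2. alrm went from −0.32 and 1.25 to 0.47 and 0.46, beside 0.32 in SD2. Yp3 went from −2.13 and −4.78 to −3.26 and −3.65, beside −3.89 in SD2. Each of these came closer to its SD2 value after exchange. Vago and alrm passed only with exchanged labels, so for them the closer values are partly set by how they were called.

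With exchanged labels some called genes still varied widely among lines. Yp2 ran from −8.72 in SD6 to −6.69 in SD2, resilin from −1.66 in SD2 to −0.13 in SD6, CG8192 from −1.88 in SD3 to −0.38 in SD6, and CG14221 from 0.04 in SD3 to 1.63 in SD2. CG15530 ran from −1.93 in SD2 to 0.18 in SD6. Cyp4d21 was 1.28 and 1.26 in SD2 and SD3 and 2.57 in SD6. A line is represented by 1 pair of pools, so these differences among lines have no replicate check.

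**Figure D4:**
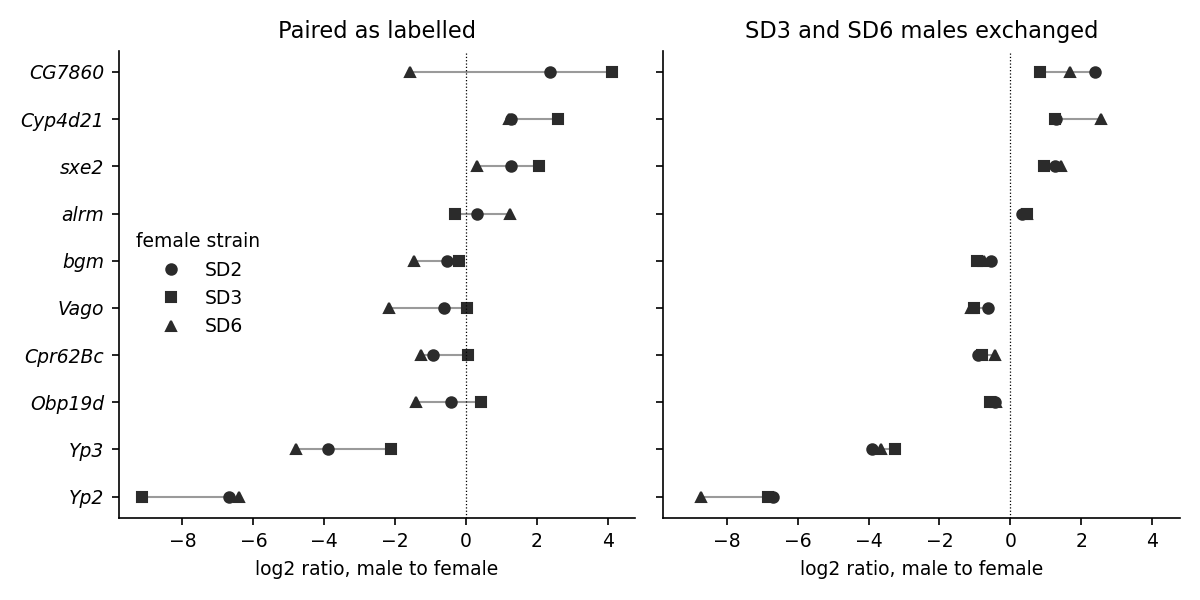
Log2 ratio of male to female CPM (pseudocount of 0.5 CPM) for 10 genes in each of the 3 lines, paired as labelled (left) and with the SD3 and SD6 males exchanged (right). Symbols give the strain of the female and grey lines the range over lines. For CG7860 the 3 ratios run from −1.59 to 4.12 on the left and from 0.85 to 2.38 on the right, and for alrm from −0.32 to 1.25 and from 0.32 to 0.47.

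The same contrast on the protein-rich HPS diet uses none of these pools and shares with them the 3 lines and, in the joint fit, the strain block and the estimate of spread. There 32 genes passed as labelled (0.319%), 12 higher in males (0.12%) and 20 in females (0.199%), and 398 with exchanged labels (3.97%), 114 higher in males (1.14%) and 284 in females (2.83%). Of the 239 genes called on LPS with exchanged labels, 236 had the same direction on HPS and 149 passed there too. With each diet fitted alone, 188 genes passed on LPS with exchanged labels (1.92% of those tested) and 222 on HPS (2.34%). Of the 183 called on LPS that were also tested on HPS, 180 had the same direction (98.4%), where 68.8% of all 9489 genes tested in both did. The genes called on both diets numbered 102, which is 55.7% of the LPS calls and 45.9% of the HPS calls.

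The test of the difference between diets called no gene. The sex difference on LPS minus that on HPS had 0 of 10026 genes past the threshold as labelled and 0 with exchanged labels (0.0% each), with 180 and 471 genes at an unadjusted p below 0.05. DESeq2 called 0 as labelled and 3 with exchanged labels, which were TotA, ND-15 and Mlp60A. No gene is called particular to LPS here. The lists had these medians on LPS and HPS with exchanged labels: muscle −0.17 and −0.51, immune genes −0.07 and −0.50, oxidative phosphorylation 0.01 and −0.16, proteasome 0.11 and −0.06, and yolk proteins −7.32 and −7.42.

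Genes with the smallest p for that difference as labelled or with exchanged labels are given as values, by the rule for named genes. TotA, with the smallest p under both labellings, stood at 25.6, 84.4 and 78.4 CPM in LPS males and 13.4, 37.2 and 70 CPM in LPS females, and at 12.7, 35.2 and 51.9 CPM in HPS males and 26.3, 58.2 and 60.6 CPM in HPS females. Males were thus above females of their line on LPS and below them on HPS. The difference of differences was 1.36 ± 0.25 with exchanged labels (edgeR adjusted p = 0.968). CG30050 stood at 15.4, 12.1 and 12.1 CPM in LPS males and at 5.94 to 7.96 CPM in all the other samples (0.91 ± 0.21, adjusted p = 0.998). Ccp84Ad had the third smallest p as labelled (unadjusted p = 0.00191) but not with exchanged labels (unadjusted p = 0.0084), where it gave −1.40 on LPS and −0.42 on HPS (difference −0.98 ± 0.31).

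With exchanged labels the values of other genes chosen by that rule were smaller. They were Sf3b5, a subunit of the splicing factor SF3b (0.76 ± 0.18), Sem1, a small proteasome lid protein (0.67 ± 0.16), ND-15, a subunit of respiratory complex I (0.55 ± 0.11), Mlp60A, a muscle LIM protein (0.52 ± 0.12), and CG43091 (0.63 ± 0.13). ND-15 stood at 188, 183 and 217 CPM in LPS males, 161, 179 and 164 CPM in LPS females, 145, 140 and 149 CPM in HPS males and 186, 199 and 164 CPM in HPS females. Its male values were above the female values on LPS and below them on HPS. With the libraries of the second sequencing run left out, which hold SD2 males of both diets, the ND-15 value was 0.57 ± 0.13 and that of TotA 1.33 ± 0.27. None passed in edgeR.

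Among the called genes with the largest gaps between diets, several rest on few reads. CG15888 had 0 to 0.138 CPM in LPS males and 0.715, 0.766 and 0.725 CPM in LPS females. CG31848 stood at 0.275, 0.278 and 0 CPM against 2.15, 0.53 and 0.523 CPM, and CG13231 at 0.516, 0.111 and 0.578 CPM against 1.98, 2.59 and 0.846 CPM. CG32625 had 38 reads in LPS males and 2 in LPS females, a ratio of 21.1 (95% interval 5.46 to 181, counting error only). roX1 was at 0.53 to 1.27 CPM in LPS females and 1.32 to 3.12 CPM in HPS females, which moved its log2 difference from 8.82 on HPS to 9.80 on LPS.

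**Figure D5:**
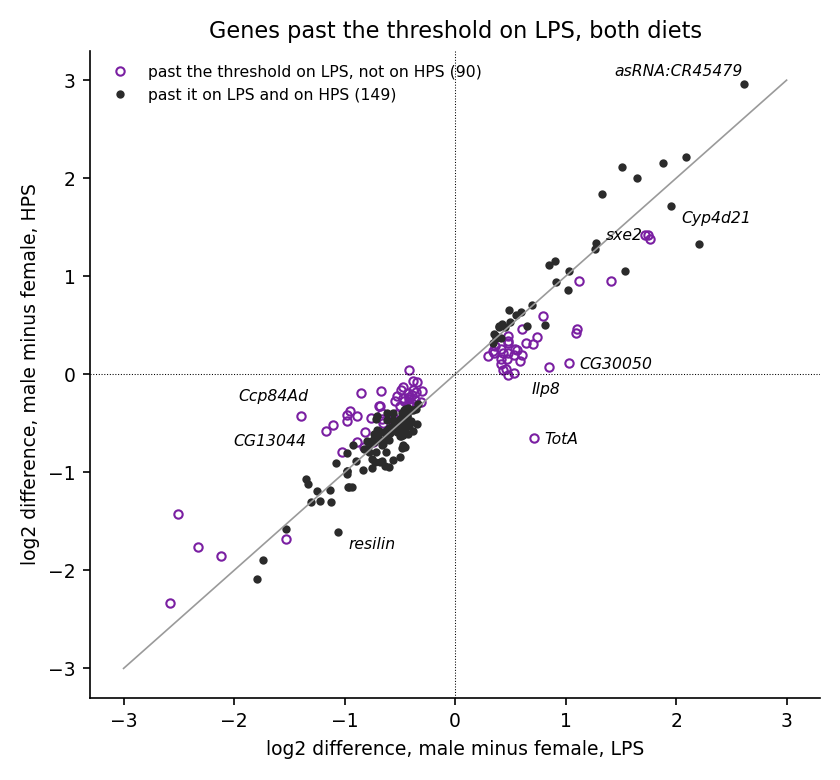
Log2 difference, male minus female, on LPS (horizontal) and HPS (vertical) for the genes past the threshold on LPS with exchanged labels; 13 of the 239 lie beyond the axes. Filled points also passed on HPS (149 genes), open points did not (90 genes), and the grey line marks equal differences. Points lie along the line except for a few named genes such as TotA (0.71 on LPS and −0.65 on HPS) and CG30050 (1.03 and 0.12), and no difference between diets passed in edgeR.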

How the data were processed

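The deposited values are counts of uniquely mapped reads per gene, whole numbers without normalization; the deposited file names mark them as counted on the reverse strand. Per the labels' protocols, a stranded poly(A) kit was used on 100 ng of total RNA, with single-end reads of 75 bp. The submitters' processing notes name TopHat2 2.1.0 and HTSeq 0.6.1p1. The genome build of the counts is not given in the sources used here. Symbols and chromosome arms came from Ensembl BDGP6 by FlyBase identifier (17155 of 17370 genes); spike-in and summary entries were left out.

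The libraries of the male LPS SD2 RNA differed beyond sampling noise (chi-square 13.0 per degree of freedom) but share 1 RNA and were summed. All 12 samples entered edgeR 4.0.16 (R 4.3.3): TMM, filterByExpr with a minimum count of 10, quasi-likelihood F-test, 4 groups plus strain, Benjamini-Hochberg adjusted p below 0.05. SE is the log2 difference over the root of F. By their labels, same-numbered samples come from the same line and so pair by design. For the male LPS libraries labelled SD3 and SD6 that label is in doubt, as given above. DESeq2 1.42.0 and limma 3.58.1 were alternatives. The script was tested on simulated data.

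Members and lists were chosen with earlier results of these data known. Named genes are the sex markers, called list members and up to 4 abundant members of a list, up to 15 largest called differences in each direction, and the extremes of the interaction, of the gap between diets and of the spread over lines.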

Additional observations from a re-analysis of the deposited data

Results flagged for a closer look

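For 4 of the genes named above, all 3 male-female pairs went one way on LPS and all 3 went the other way on HPS, with exchanged labels. They were TotA (difference of the sex differences, LPS minus HPS, 1.36 on the log2 scale), Sf3b5 (0.76), CG43091 (0.629) and ND-15 (0.553). The difference itself was tested in edgeR for each and passed for none, the smallest adjusted p being 0.968. Over all 10026 genes the same pattern of opposite pairs was found for 179, and 1632 had all 6 pairs in 1 direction. As labelled these counts were 116 and 1047.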

How the results depend on the processing

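The count of genes called on LPS was 26 as labelled, and 20 to 35 without the strain block, with RLE scaling, without the low-count filter, with the first male SD2 library alone or in 1 sequencing run alone; it was 30 at a minimum count of 50 and 37 without both doubtful libraries. The replicate block by strain moved the count from 20 to 26, and 19 genes were shared. DESeq2 called 129, limma-voom 42 and the second male SD2 library alone 41. With the strains exchanged 239 were called on LPS, 102 of them X-linked. Exchanged fits chosen after seeing the data called 361 (DESeq2), 283 (limma-voom), 224 and 245 (first or second male SD2 library alone) and 190 (1 sequencing run, 183 shared with the 239). The 6 LPS samples alone gave 3 as labelled, 5 without the block and 188 exchanged. Leaving out 1 sample at a time gave 9 to 135 as labelled, the highest without the library labelled male LPS SD6, and 90 to 322 exchanged.

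On HPS 398 were called when exchanged, 454 without both doubtful libraries, 188 by DESeq2 and 10 in 1 sequencing run. Exchanged fits gave 584 (DESeq2), 425 (limma-voom), 373 and 381 (1 male LPS SD2 library) and 114 (1 run), the 6 HPS samples alone 222, and single samples left out 10 to 182 as labelled and 123 to 565 exchanged. The difference between diets had 0 calls in every other fit, 3 in DESeq2 with exchanged labels and 0 to 1 with single samples left out, those being COX7AL2, AttC and TotA in 1 fit each. Members of the lists numbered 7 as labelled, 39 exchanged and 13 without both doubtful libraries. Pools of the 2 sexes lay apart by at least 1.5-fold, a limit chosen after seeing the data, for 34 of the 983 genes.

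Of 3193 values for 104 of the named genes on LPS under 31 alternatives, 4 turned in sign, each with a single sample left out. Exchanged fits with a single sample left out were not among the 31. The 104 did not take in all list members, and some others near 0 turned on exchange. Hsp83 was 0.03 as labelled and −0.02 with exchanged labels, and BomS2 0.13 and −0.04. Over the alternatives Obp19d ran from −0.87 to 0.055, Mlp60A from −0.17 to 0.22 and CG43091 from −0.28 to 0.61. The end that turned was reached without the library labelled male LPS SD6. Mlp60A also turned, to −0.087, without female SD6. The main limits are 1 pool for each line, sex and diet, shared vials, the doubtful strain labels, and depth: at 8.82 M reads in 1 male pool, genes near 0.34 CPM rest on 3 reads there, so differences of low genes such as fit, CG3706 and CG31848 are loosely fixed.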

Other observations

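Some called genes were on no list and were picked after their values were seen, so they stand for no group and get no count. With exchanged labels, nop5, a box C/D snoRNP protein of the nucleolus, stood at 42.3, 30.3 and 31.1 CPM in males and 56, 58.9 and 56.4 CPM in females (−0.72 ± 0.13, edgeR adjusted p = 0.0128). Nop60B, the pseudouridine synthase, gave −0.70 ± 0.12 and Nop56 −0.51 ± 0.10 (adjusted p = 0.00832 and 0.0184). Paics, an enzyme of purine synthesis, stood at 360, 361 and 443 CPM in males and 469, 614 and 518 CPM in females (−0.46 ± 0.08), and ras, the IMP dehydrogenase, gave −0.46 ± 0.08.

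Of basement membrane genes, 3 picked the same way passed with exchanged labels, while the collagens Col4a1 and vkg did not. LanA, laminin A, gave −0.54 ± 0.08, Ndg, nidogen, −0.82 ± 0.19, and Ppn, papilin, −0.48 ± 0.11 (edgeR adjusted p = 0.00486, 0.04 and 0.049). Named metallopeptidases of the neprilysin family differed in direction. Nep1 was higher in males (0.40 ± 0.09), while Nep6 (−0.92 ± 0.15) and Nep7 (−0.44 ± 0.10) were higher in females. None of these genes passed as labelled.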
